A study of Mus musculus with 2 samples.

Results

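Expression of 10 receptors of the tumour necrosis factor (TNF) receptor superfamily was examined in regulatory T cells (Treg), CD4 cells that restrain immune responses and depend on the transcription factor Foxp3. The 10 genes were Tnfrsf18 (GITR), Tnfrsf4 (OX40), Tnfrsf9 (4-1BB), Cd27, Tnfrsf1a (TNFR1), Tnfrsf1b (TNFR2), Tnfrsf25 (DR3), Fas, Ltbr (the lymphotoxin beta receptor) and Tnfrsf14 (HVEM). They were chosen by name. Every probe set, a group of short array probes that together read 1 transcript, was taken if the platform annotation paired it with exactly 1 of these symbols. This gave 13 probe sets of 45101 on the array, and 10 genes of 18193 with such a probe set. No probe set paired a member with a further symbol.

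The study set Treg with both Stat3 alleles floxed, that is, open to deletion by Cre, against Treg with a single floxed allele. Stat3 is a transcription factor that transmits signals of IL-6 and related cytokines. There were 2 arrays, 1 from cells labelled Foxp3 Cre/wtS, Stat3 fl/wt and 1 from cells labelled Foxp3 Cre/wtS, Stat3 fl/fl, called fl/wt and fl/fl below. The donors of both were female mice aged 6 to 8 weeks, and Treg from their spleens and lymph nodes were isolated by cell sorting. Both genotypes carried Cre at a Foxp3 allele. Because Foxp3 is X-linked and these females are heterozygous, Treg that silence the X bearing Cre do not make it. Whether such cells were sorted out, whether mice were pooled and what the letter S means are not stated in the labels. The design text writes the Foxp3 genotype of the fl/fl cells as Cre/wt. With 1 array per genotype there was no replicate error, and no difference below has a test.

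Members of this family are surface receptors with cysteine-rich extracellular repeats that bind trimeric ligands of the TNF family. Receptors such as GITR, OX40, 4-1BB, CD27 and TNFR2 recruit TRAF adaptors and activate NF-kappaB, and they costimulate T cells. TNFR1, Fas and DR3 carry a death domain, through which they can reach FADD, TRADD and caspase-8. Treg are known for high surface GITR, OX40, 4-1BB and TNFR2, which support their numbers and their survival.

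The probe sets of Stat3 and markers of cell types were read first. Of the 4 Stat3 probe sets, 3 lay at or above log2 5 and differed between the arrays (fl/fl minus fl/wt) by -0.083, -0.019 and -0.0083 on the log2 scale. No source used here places them relative to the floxed exons, so they leave the genotype labels unchecked. Of 8 Treg and T cell markers, 7 were measured, with Ctla4, an inhibitory receptor of Treg, at log2 14.91 (fl/wt) and 14.87 (fl/fl). For Foxp3 itself the only probe set was dim, at 4.09 and 3.52, under log2 5. Markers of other cells were present: 9 of 10 myeloid markers were measured, with a summed level of log2 15.98 in both arrays, and only Itgam (2.36 and 2.37) was under log2 5. Of the 8 B cell markers 5 were measured (summed level 11.09 in the fl/wt array and 11.002 in the fl/fl array), with Pax5 at 1.88 and 1.89. Of the dendritic cell markers 1 of 6 was measured, Itgax, and of the stromal and endothelial markers 1 of 9, Pecam1. The bulk samples cannot separate fewer cells of a type from less RNA per cell.

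Of the 10 receptor genes, 8 were measured, that is, their brightest probe set reached log2 5 in at least 1 array. All 8 reached it in both. The other 2, Ltbr and Tnfrsf14, were under log2 5 in both arrays, where values have no order after the background subtraction. Of the 13 probe sets, 9 were measured and 4 were dim. Levels of the 8 measured genes spanned 3.29 (fl/wt) and 3.02 (fl/fl) log2 units, and 5 of them stood at or above log2 12 in both arrays, as did 20.7% of the 9773 genes measured.

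**Figure D1:**
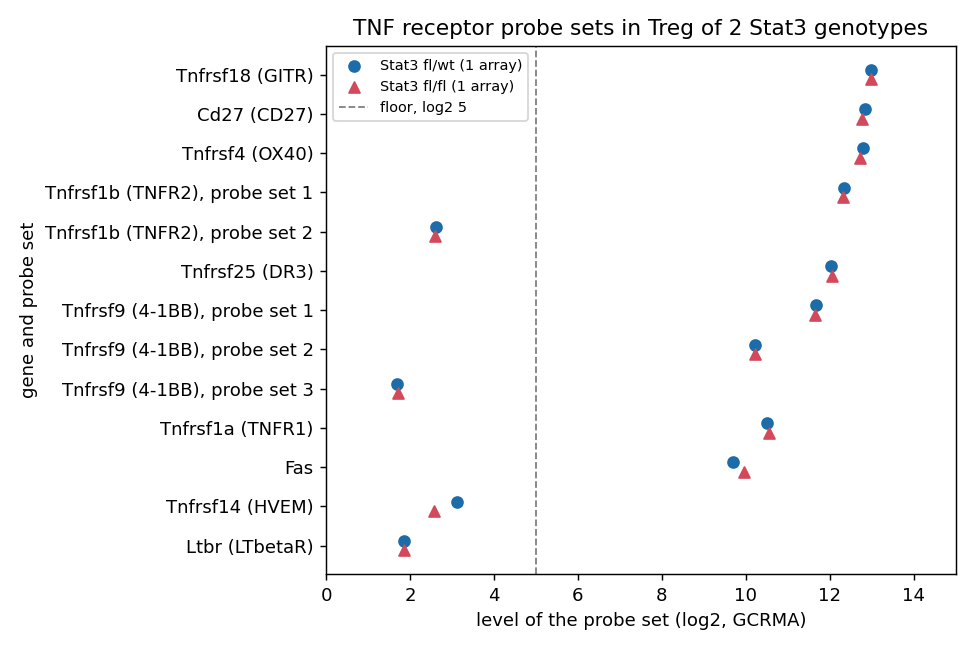
Level of each of the 13 probe sets on the log2 scale (horizontal axis) in the fl/wt array (circles) and the fl/fl array (triangles), 1 array each, with genes in order of mean level and probe sets of 1 gene together; the dashed line marks log2 5. The symbols of the 9 measured probe sets nearly coincide except for Fas, at 9.69 and 9.97, and 4 probe sets lie left of the line.

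The 4 receptors grouped here as costimulatory were among the bright members. GITR, whose ligation costimulates effector T cells and modulates Treg, was the brightest: Tnfrsf18 read log2 12.99 in the fl/wt array and 12.98 in the fl/fl array, above 96.4% of all probe sets in either array. Cd27, the receptor of CD70, read 12.84 in the fl/wt array and 12.76 in the fl/fl array. OX40, which sustains activated T cells, followed closely, with Tnfrsf4 at 12.80 in the fl/wt array and 12.73 in the fl/fl array. These 3 genes lay within 0.19 log2 units of each other in fl/wt and 0.25 in fl/fl. The gap between Cd27 and Tnfrsf4 was 0.045 in the fl/wt array and 0.030 in the fl/fl array, smaller than the difference of either gene between the arrays.

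Tnfrsf9 encodes 4-1BB, an activation-induced receptor that marks Treg recently engaged through their T cell receptor. Its brightest probe set read 11.67 in the fl/wt array and 11.65 in the fl/fl array. A second probe set read 10.22 and 10.21, and the third lay under log2 5, at 1.70 in both arrays. The measured pair differed in level by 1.45 log2 units, yet their differences between arrays, -0.022 and -0.0020, lay 0.020 apart. The pair read unequal levels but nearly equal differences.

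TNFR2, the TNF receptor that Treg are known to display and that has no death domain, stood next below OX40. Tnfrsf1b read 12.35 in the fl/wt array and 12.32 in the fl/fl array, above 94.4% of all probe sets in either array. A second Tnfrsf1b probe set, designed on the same accession, was under log2 5, at 2.62 and 2.59. The 2 probe sets of this gene lay 9.73 log2 units apart, and the 3 of Tnfrsf9 spanned 9.96. Such spans were common on these arrays: of 3546 genes with several probe sets and a brightest one at or above a mean of log2 10, 49.2% had another one under log2 5. From a dim probe set alone, an absent transcript and one the probes do not read cannot be told apart.

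That limit applies to the 2 dim members, each read by a single probe set. Ltbr, which binds lymphotoxin alpha1beta2 and LIGHT and is known mainly from stromal and myeloid cells, read 1.85 in both arrays, although 9 of 10 myeloid markers were measured. Tnfrsf14, which binds LIGHT and the inhibitory receptor BTLA, read 3.11 in the fl/wt array and 2.58 in the fl/fl array. Neither value can be ordered or given a fold change.

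The 3 death domain receptors took places 5, 7 and 8 in the order of the 8. DR3, the receptor of TL1A whose stimulation is known to expand mouse Treg, was the brightest of them, with Tnfrsf25 at 12.03 in the fl/wt array and 12.06 in the fl/fl array. TNFR1, the receptor through which soluble TNF can signal survival or death in most cells, was dimmer, with Tnfrsf1a at 10.50 in the fl/wt array and 10.55 in the fl/fl array. Fas, the death receptor that deletes activated lymphocytes, was the dimmest measured member, at 9.69 in the fl/wt array and 9.97 in the fl/fl array. It was also the only measured member under the median level of all measured genes, which was 10.18 in the fl/wt array and 10.17 in the fl/fl array. TNFR1, TNFR2 and Fas are expressed by myeloid cells too, whose markers were measured in both arrays; the part of such cells in these levels was not tested.

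The order of the 8 measured genes was the same in both arrays: Tnfrsf18, Cd27, Tnfrsf4, Tnfrsf1b, Tnfrsf25, Tnfrsf9, Tnfrsf1a and Fas. It is an order of probe signals, since probes of different sequence bind with different strength. Except for Cd27 and Tnfrsf4, neighbours in the order lay farther apart than either differed between the arrays. Within an array, however, each gap between neighbours was smaller than the 1.45 log2 units between the 2 measured Tnfrsf9 probe sets. The widest gap, between Tnfrsf9 and Tnfrsf1a, was 1.18 in the fl/wt array and 1.10 in the fl/fl array. With the median over a gene's probe sets in place of the brightest, 4 of the 8 places changed.

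Between the arrays the receptors were nearly equal, with Fas as the exception in size. Fas was 0.27 log2 units higher in the array labelled fl/fl, which is 1.21-fold. Tnfrsf1a was higher by 0.058 and Tnfrsf25 by 0.026. The other 5 were lower in fl/fl, with -0.082 for Cd27, -0.067 for Tnfrsf4, -0.032 for Tnfrsf1b, -0.022 for Tnfrsf9 and -0.0060 for Tnfrsf18. As a count, 3 of the 8 were higher and 5 lower, beside 47.5% of all measured genes higher by any amount. The median difference was -0.014 over the 8 and -0.0045 over all genes measured. In size, the median was 0.045 over the 8 receptors and 0.053 over all genes measured.

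**Figure D2:**
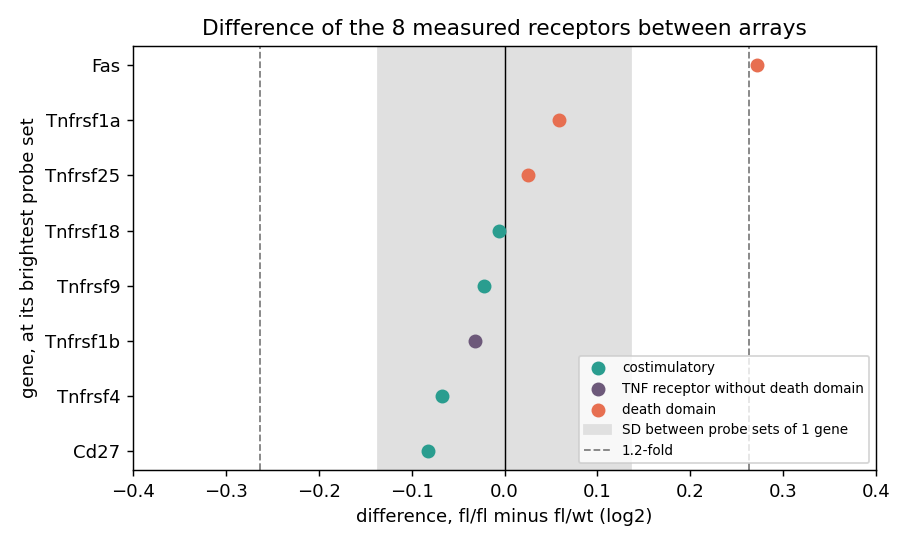
Difference of each of the 8 measured genes between the arrays, fl/fl minus fl/wt on the log2 scale, 1 point per gene at its brightest probe set, coloured by role. The grey band spans plus and minus 0.14, the standard deviation (SD) of differences between probe sets of 1 gene over all levels, and only Fas lies outside it.

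A fold of 1.2, or 0.26 on the log2 scale, was used to mark a difference, since few genes reached 1.5-fold. At this fold 1 of the 8 receptors was marked, beside 5.23% of all measured genes in either direction, 2.37% higher and 2.85% lower in fl/fl. Fas lay just past the mark, and lost it with 32 added on the linear scale (0.2625, against 0.2630 for 1.2-fold) and with the arrays centred on their medians (0.240). At 1.5-fold it was 0 of 8, beside 0.645%. As no replicate error exists, the differences were set beside the disagreement, in the same 2 arrays, of probe sets that share a gene. Its SD was 0.14 over 4227 genes of all levels, beside 0.27 for Fas and sizes up to 0.082 for the other 7 receptors. This SD holds only the disagreement between probe sets within the 2 arrays, and an error shared by all probe sets of a gene is not in it. Variation between animals and cell preparations is not in it either, so a difference beyond it is not thereby one between the genotypes.

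Differences depended on level, so the levels of the receptors were also taken into account, in ranges set after the values were seen. At a mean of log2 9 to 11, where Fas lies, the SD between probe sets was 0.092 (721 genes). In that range 1.21% of 3234 genes were 1.2-fold apart, and 33 of the 3234 (1.02%), Fas included, differed at least as much as Fas. At a mean of log2 12 or more, where 5 receptors lie, the SD was 0.046 (454 genes), beside -0.082 for Cd27, -0.067 for Tnfrsf4 and sizes up to 0.032 for Tnfrsf18, Tnfrsf1b and Tnfrsf25. Differences of that size were not rare among the 2060 genes there: 8.69% differed at least as much as Cd27 and 14.2% at least as much as Tnfrsf4. Past 1.2-fold were 0.194% of those genes and none of the 5 receptors. Fas was read by a single probe set, so no second one checks it.

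**Figure D3:**
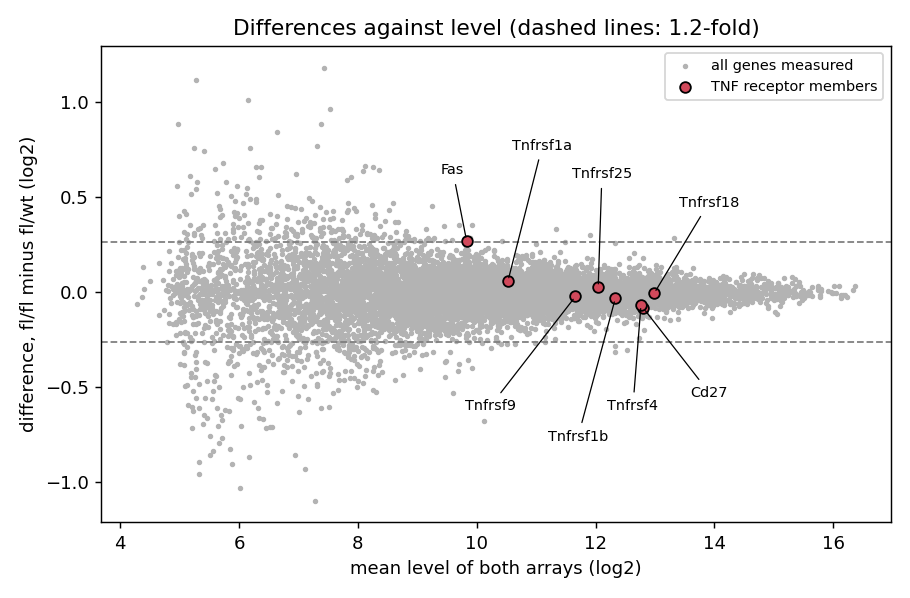
Difference between the arrays (vertical axis, log2, fl/fl minus fl/wt) against mean level (horizontal axis, log2) for the 9773 measured genes in grey, with the 8 receptors in red; dashed lines mark 1.2-fold. The spread narrows towards bright genes, and 7 of the 8 receptors lie inside the cloud near 0 while Fas sits just above the upper dashed line.

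By role, the differences of the death domain receptors were 0.27 for Fas, 0.058 for Tnfrsf1a and 0.026 for Tnfrsf25 (median 0.058), and those of the 4 costimulatory ones ran from -0.082 to -0.0060 (median -0.044). Apart from Fas none passed 1.2-fold, so no direction is read for either role, and that of Tnfrsf25 was -0.0059 when the arrays were centred on their medians. Of 7 CD8 and NK cell markers 5 were measured, with a summed level of log2 11.28 in the fl/wt array and 11.29 in the fl/fl array and the NK receptor gene Ncr1 at 2.13 and 2.14. Among these 5 markers 2 were higher and 3 lower in fl/fl (median -0.010). Cd8b1 was 0.27 higher, from 8.54 to 8.81, just past 1.2-fold, as were 5.23% of all measured genes in either direction. Cd8a read 8.29 and 8.26 and Nkg7, the brightest, 10.65 and 10.59. The part of such cells in the Fas difference was not tested.

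The ligands of these receptors were read from a list of 18, of which 14 had a probe set of a single gene and 9 were measured. Of the 9, 6 were higher and 3 lower in fl/fl (median 0.018). The brightest was Ltb, the membrane anchor of lymphotoxin, at log2 14.81 in the fl/wt array and 14.86 in the fl/fl array, and Lta, its partner, read 11.36 and 11.41. Thus both subunits of the Ltbr ligand were bright while the Ltbr probe set was dim. Tnf, the ligand of TNFR1 and TNFR2, read 9.10 in the fl/wt array and 9.11 in the fl/fl array, and Tnfsf11 (RANKL), a ligand of a receptor outside the 10, read 10.92 and 10.94. Fasl, the ligand of Fas, read 8.64 in the fl/wt array and 8.42 in the fl/fl array, a difference of -0.22, opposite in sign to that of Fas. Tnfsf14 (LIGHT), which binds HVEM and Ltbr, read 8.18 and 7.95, also lower by 0.22. Tnfsf9, the ligand of 4-1BB, was dim at 6.15 and 6.47, and its difference of 0.33 was the only one of the 9 past 1.2-fold. At a mean level of log2 5 to 7, 24.3% of 982 genes were that far apart in either direction. Tnfsf4, the OX40 ligand, and Cd70, the CD27 ligand, were under log2 5 in both arrays. Tnfsf18 and Tnfsf15, the ligands of GITR and DR3, were not paired with a probe set of their own.

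Of 18 further receptors of the superfamily, 17 had a probe set and 6 were measured, 3 higher and 3 lower in fl/fl (median 0.013). Past 1.2-fold were Tnfrsf22, a mouse decoy receptor for TRAIL, at 5.84 in the fl/wt array and 6.31 in the fl/fl array, and Tnfrsf12a (Fn14, the TWEAK receptor), at 6.84 and 6.50. Both are at the level where such differences are frequent, and the second measured probe set of Tnfrsf12a differed by -0.19. The brightest was Tnfrsf13b (TACI), known chiefly from B cells, at 11.19 and 11.03. Of 8 B cell markers 5 were measured, from Blk at 5.31 and 5.15 up to Cd79b at 10.34 and 10.26. Among these 5, 1 was higher and 4 lower in fl/fl. Ms4a1 was past 1.2-fold, at 7.48 and 7.15, while its second measured probe set differed by 0.28, with the opposite sign. The part of B cells in the TACI level was not tested. Tnfrsf21 (DR6) read 9.51 and 9.69, and the orphan receptor Relt 9.27 and 9.12. Cd40 was at 4.99 in the fl/wt array and 5.18 in the fl/fl array. It thus counted as measured only through the fl/fl array, and the 3 counted as higher and the median rest partly on it. The other 11, among them Tnfrsf8 (CD30) at 2.21 and 2.22, were under log2 5 in both arrays.

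Signal transducers below the receptors differed by at most 0.18 on the log2 scale at the brightest probe set of each gene. Of 18 measured adaptors and death signalling genes, 9 were higher in fl/fl and 9 lower, with 0 past 1.2-fold at the brightest probe set (median -0.0016). Of 16 other measured probe sets in this list 2 were past it, 1 of Cflar, the FLICE-like inhibitor of caspase-8, at -0.31 and 1 of Traf6 at 0.30, both opposite in sign to the brightest probe set (0.061 and -0.034). Casp8, the initiator caspase of death receptors, read 13.43 in both arrays, and Cyld, a deubiquitinase that restrains NF-kappaB, read 13.28 in the fl/wt array and 13.29 in the fl/fl array. Traf1, an adaptor of TNFR2 and 4-1BB, read 11.72 in both arrays. Birc3, a ubiquitin ligase bound to TRAF2, read 12.19 and 12.24. At the brightest probe sets the largest differences in this list were those of Tradd, the adaptor of TNFR1 and DR3, at -0.18 (12.004 in the fl/wt array and 11.82 in the fl/fl array; -0.062 at its second measured probe set), and Fadd, the adaptor of Fas, at 0.16 (9.36 and 9.52). Of 15 measured NF-kappaB genes, 9 were higher and 6 lower, with 0 past 1.2-fold (median 0.0054), and their 15 other measured probe sets had 0 past it as well. Nfkbia, the inhibitor that NF-kappaB induces, was at 15.46 in the fl/wt array and 15.47 in the fl/fl array. Tnfaip3 (A20), a further feedback inhibitor, read 12.97 in both arrays. Among 4 interacting genes Btla, the inhibitory receptor that binds HVEM, read 12.89 and 12.95, and the protease gene Adam17, whose product sheds TNF and TNF receptors, read 11.11 and 11.13.

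**Figure D4:**
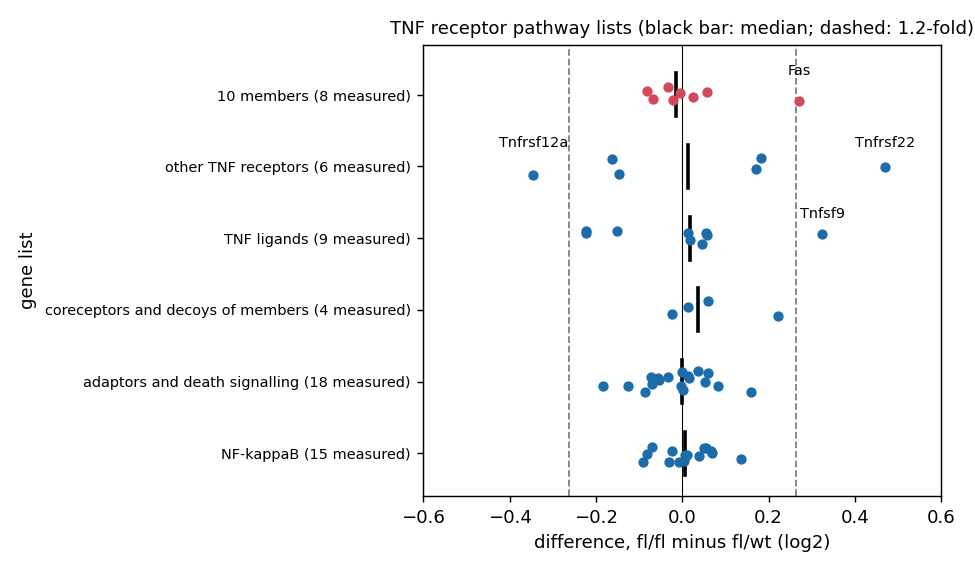
Difference between the arrays (horizontal axis, log2, fl/fl minus fl/wt) of the measured genes of each list (rows), 1 point per gene, with a black bar at the median and dashed lines at 1.2-fold. Medians lie between -0.014 for the 8 measured receptors of the 10 and 0.037 for the 4 interacting genes, and the points past 1.2-fold are Fas, Tnfrsf22, Tnfrsf12a and Tnfsf9.

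In the genome 6 of the 10 genes lie on chromosome 4, 3 on chromosome 6 and Fas on chromosome 19 (RefSeq, GRCm38.p6). Tnfrsf4 and Tnfrsf18 are neighbours with 0 protein-coding genes between them, and both were among the 3 brightest members. Ltbr and Tnfrsf1a on chromosome 6 have 1 such gene between them, yet their probe sets stood at 1.85 and 10.50 in fl/wt. Ltbr and Cd27 likewise have 1 gene between them.

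Since the study manipulated Stat3, the promoter windows of the members were searched for the letters TTCNNNGAA, the palindromic core that STAT proteins bind, and for GGNNTTTCC, a form of the kappaB site bound by NF-kappaB, on both strands. RefSeq gave 12 windows for the 10 genes, each from 250 bases before to 50 bases after an annotated start. The STAT letters were in 6 of the 12 windows, 1 each for Tnfrsf18, Tnfrsf9, Tnfrsf1a, Tnfrsf1b, Tnfrsf25 and Fas, beside 8.3% of all 32851 windows. The kappaB letters were in 2, of Tnfrsf9 and Tnfrsf25, beside 5.82% of all windows. The motifs did not overlap in the windows shown. These are matches of letters, not measured sites. The windows of 4 genes are printed 5′ to 3′ to show members with and without a match beside their differences; capitals mark the matched letters.

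The Fas window, chr19:34290409-34290708 on the plus strand, belongs to the gene with the largest difference (0.27). Its STAT letters begin 93 bases before the start.
Fas: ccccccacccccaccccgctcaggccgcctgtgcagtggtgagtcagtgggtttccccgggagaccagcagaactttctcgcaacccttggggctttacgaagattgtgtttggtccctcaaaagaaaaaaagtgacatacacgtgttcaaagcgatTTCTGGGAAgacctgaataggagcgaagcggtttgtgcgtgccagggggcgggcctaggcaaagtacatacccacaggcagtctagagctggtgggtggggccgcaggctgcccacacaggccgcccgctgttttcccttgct
The Tnfrsf18 window, chr4:156026072-156026371 on the plus strand, belongs to the brightest gene, which differed by -0.0060. Its STAT letters begin 99 bases before the start.
Tnfrsf18: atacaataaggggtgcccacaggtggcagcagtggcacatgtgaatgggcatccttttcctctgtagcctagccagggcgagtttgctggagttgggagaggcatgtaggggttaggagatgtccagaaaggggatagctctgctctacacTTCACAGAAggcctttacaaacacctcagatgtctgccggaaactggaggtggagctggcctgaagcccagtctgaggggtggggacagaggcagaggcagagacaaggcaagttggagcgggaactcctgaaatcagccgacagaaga
The second Tnfrsf9 window, chr4:150927749-150928048 on the plus strand, held both motifs, the STAT letters from 136 and the kappaB letters from 42 bases before the start.
Tnfrsf9: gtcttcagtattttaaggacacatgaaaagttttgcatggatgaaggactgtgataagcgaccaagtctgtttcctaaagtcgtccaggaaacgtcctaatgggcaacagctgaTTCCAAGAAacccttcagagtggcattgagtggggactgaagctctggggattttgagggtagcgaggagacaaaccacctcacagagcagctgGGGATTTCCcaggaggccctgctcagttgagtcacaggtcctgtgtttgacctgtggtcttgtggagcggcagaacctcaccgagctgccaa
The Cd27 window, chr6:125236978-125237277 on the minus strand, held neither motif, and Cd27 differed by -0.082.
Cd27: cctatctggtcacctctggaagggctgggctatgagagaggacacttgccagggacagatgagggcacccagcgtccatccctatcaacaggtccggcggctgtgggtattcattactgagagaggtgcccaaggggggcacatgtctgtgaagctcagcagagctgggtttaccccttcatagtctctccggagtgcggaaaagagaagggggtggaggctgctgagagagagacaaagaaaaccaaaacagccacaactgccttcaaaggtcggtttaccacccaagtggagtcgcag

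The 6 genes with the STAT letters thus included Fas, the member with the largest difference, and Tnfrsf18, the member with the smallest. All 6 were measured, and the 4 without them were the bright genes Cd27 and Tnfrsf4 and the dim genes Ltbr and Tnfrsf14. The differences of the 6 ran from -0.032 to 0.27, and those of Cd27 and Tnfrsf4 were -0.082 and -0.067. Apart from Fas none of these passed 1.2-fold, and a relation of the letters to the differences was not tested.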

How the data were processed

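Total RNA of sorted Treg was biotin-labelled as cRNA and hybridised to Affymetrix arrays, 1 per Stat3 genotype, per the labels' protocols. The values deposited by the authors are on a log2 scale, as judged from their range (0.53 to 16.9), for 45101 probe sets; the median was 3.47 in fl/wt and 3.50 in fl/fl. GCRMA, which subtracts a background modelled on probe sequence and compresses dim values, is named in the submitters' processing notes; neither version nor settings are stated. The number of arrays limits the precision.

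Names came from GEO's annotation of the platform (34958 with 1 symbol, 932 with several, 9211 with none, controls included). The Entrez identifiers of all 10 members matched RefSeq GRCm38.p6 and 0 symbols changed. No build is named for the array values. A gene was read at its probe set with the highest mean, control probe sets left out. A gene counted as measured if either array reached log2 5 (9773 genes), and 5 replaced any lower value. Differences are fl/fl minus fl/wt, with no test. All 10 members could be named. From each other list up to 8 genes could be named, those past 1.2-fold first and then the brightest, besides genes under log2 5. Tnfsf14, Fadd, Cflar and Traf6 fall outside this rule and were named for their differences. With 2 arrays, no likeness of pattern to other genes can be measured. The members, lists and folds were chosen with earlier results of these data known. The gene-level procedure was tested on simulated data. In all, 9 alternatives were run, with Python 3.11.15, pandas 2.3.3 and, for loess, statsmodels 0.14.6.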

Additional observations from a re-analysis of the deposited data

How the results depend on the processing

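The alternatives were 3 other treatments of dim values, 2 other choices of probe set, 32 added on the linear scale, and 3 scalings between arrays. The 1.2-fold mark of Fas lay close to its threshold of 0.2630. In 5 of the 9 alternatives its value cannot change, since its single probe set lies far above every floor. In the 4 that can change it, the difference ran from 0.24 to 0.27 and passed in 2 (quantile normalisation and loess). The count of members past 1.2-fold, 1 as reported, was 0 with 32 added (Fas at 0.2625) and 0 with median centring (Fas at 0.24), and 2 with no filter and no floor, where the dim Tnfrsf14 (-0.53) joined Fas. Median centring also moved the median of all genes to -0.036. The median difference of the members was negative in all 9 alternatives, from -0.045 to -0.0040; the treatments of dim values left it at -0.014. Of 70 differences of single members under the alternatives, 36 were identical to the reported ones because the setting cannot move them. Of the other 34, 1 changed sign, that of Tnfrsf25 with median centring (-0.0059). The order by level changed in 4 of 8 places with the median of probe sets, where Tnfrsf9 and Tnfrsf1b include dim ones, and in 0 places in the other 8 alternatives, of which the setting without shared-suffix probe sets had no value for Tnfrsf18 and Tnfrsf25. No paired analysis was possible because each genotype has 1 array.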
